A study of Mus musculus with 20 samples.

Results

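Expression of 8 complement genes, C1qa, C1qb, C1qc, C3, C4b, C3ar1, Serping1 and Itgam, was examined in single cells of the basolateral amygdala (BLA) of mice given corticosterone and ketamine. The genes were taken by symbol from the 31053 genes counted, and all 8 were found, with 11 (C3) to 17666 (C1qa) unique molecular identifiers (UMIs, each counting 1 captured transcript) in the cells that were kept. They were followed through microglia, macrophages, astrocytes, endothelial cells and mural cells (pericytes and smooth muscle), and between treatments. The highest levels of the 3 C1q genes and of Itgam were in microglia, that of C4b was in macrophages and, among the larger classes, in astrocytes, and that of Serping1 was in fibroblasts and mural cells. C3 was close to absent, and no member passed the test between treatments in the fit of all groups.

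Complement is a cascade of secreted proteins that marks cells, debris and, in the brain, synapses for removal. C1q, assembled from the A, B and C chains that C1qa, C1qb and C1qc encode, recognises the target and starts the classical pathway. The pathway then cleaves C4, which C4b encodes in the mouse, and C3, the central component on which all pathways converge. Fragments of C3 are read by receptors: C3ar1 binds the soluble fragment C3a, and Itgam (CD11b) is the alpha chain of complement receptor CR3, which binds fragments fixed on a surface. Serping1 encodes the C1 inhibitor, which blocks the proteases that C1q carries. Microglia are known as the main source of C1q in the brain and as cells that take up synapses through CR3.

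The samples were C57BL/6 mice, wild type, 13 weeks old and male by the methods of the study, and 1 BLA library was made per mouse. BCD/Sal mice (9901 and 9947, n = 2) drank the cyclodextrin vehicle (BCD) and were injected with saline, BCD/Ket mice (9946, 9949 and 9986, n = 3) drank BCD and received ketamine at 10 mg/kg, CORT/Sal mice (9969 and 9970, n = 2) drank corticosterone (CORT) at 35 µg/ml and received saline, and CORT/Ket mice (9967, 9968 and 9971, n = 3) received both. Drinking lasted 6 weeks in all 4 groups, and tissue was taken 24 h after the injection. The methods section names regular drinking water for controls where the labels name BCD, and the labels were followed. Libraries of the prefrontal cortex from the same mice were not analysed here.

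Of 28722 barcodes, 8305 were kept, which held 200 genes or more and a mitochondrial fraction up to 0.125, 135 to 2397 per library, with a median of 826 to 2845 UMIs each. Clusters were named from marker genes (complement genes were left out of clustering and naming), and each name stands for "-like" cells: 863 microglia, 52 macrophages, 1293 astrocytes, 1094 endothelial cells and 269 mural cells, with all 12, 14, 14, 14 and 12 of their markers at 1 UMI per 10000 or more. Mural cells also held 14 of 14 endothelial markers at that level. Libraries stood apart within groups. BCD/Sal mouse 9947, BCD/Ket mouse 9946, CORT/Sal mouse 9970 and CORT/Ket mouse 9967 held 0 to 3 microglia each, so microglia and astrocytes rest on the other 6 mice, 1 each in BCD/Sal and CORT/Sal and 2 each in BCD/Ket and CORT/Ket. CORT/Sal mouse 9970 gave an unnamed cluster of 2344 barcodes that is treated apart. Any 2 libraries shared at most 20 barcode sequences (median 2 over 45 pairs), and at most 10 among barcodes that were kept. In what follows a level is the number of UMIs of a gene per 10000 UMIs of a class, summed within a mouse with at least 10 cells of the class, and 95% intervals of single values are exact Poisson intervals that cover counting error only. Intervals of a ratio between classes are exact 95% intervals from UMIs pooled over mice. They too cover counting error only and leave out the spread between mice and cells.

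The C1q genes lie next to each other on chromosome 4, on the minus strand. In GENCODE M1 on NCBIM37, C1qb (ENSMUSG00000036905) spans bases 136436044 to 136442102, C1qc (ENSMUSG00000036896) 136445719 to 136448980 and C1qa (ENSMUSG00000036887) 136451832 to 136454718, 18675 bases in all, with gaps of 3616 and 2851 bases. Itgam (ENSMUSG00000030786) lies on chromosome 7 at 135206154 to 135271674, C4b (ENSMUSG00000073418) on chromosome 17 at 34865325 to 34880827 (its near copy C4a was not analysed here, so reads that fit both cannot be told apart), C3 (ENSMUSG00000024164) on chromosome 17 at 57343397 to 57367559, C3ar1 (ENSMUSG00000040552) on chromosome 6 at 122797156 to 122806179 and Serping1 (ENSMUSG00000023224) on chromosome 2 at 84605544 to 84615601. Since C1qb, C1qc and Itgam shared their highest level in microglia, the 250 bases before their starts are shown, 5′ to 3′ on the strand of the gene, from RefSeq promoters on GRCm38.p6 (chr4:136886201-136886450, chr4:136892915-136893164 and chr7:128062390-128062639). RefSeq promoters were matched for 5 of the 8 members (C1qb, C1qc, C3, C3ar1 and Itgam). Capitals mark GAGGAA or its reverse complement TTCCTC, a core of the motif of PU.1, a transcription factor of myeloid cells.
C1qb: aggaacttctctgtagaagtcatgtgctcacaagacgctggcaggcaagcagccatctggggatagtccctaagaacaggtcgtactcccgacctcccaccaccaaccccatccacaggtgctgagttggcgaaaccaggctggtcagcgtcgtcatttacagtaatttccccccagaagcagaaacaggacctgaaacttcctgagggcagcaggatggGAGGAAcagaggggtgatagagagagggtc
C1qc: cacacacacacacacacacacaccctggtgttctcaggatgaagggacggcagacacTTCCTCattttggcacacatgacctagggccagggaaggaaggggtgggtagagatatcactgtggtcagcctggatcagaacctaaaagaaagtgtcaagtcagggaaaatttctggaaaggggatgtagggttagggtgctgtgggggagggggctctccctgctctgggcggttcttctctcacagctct
Itgam: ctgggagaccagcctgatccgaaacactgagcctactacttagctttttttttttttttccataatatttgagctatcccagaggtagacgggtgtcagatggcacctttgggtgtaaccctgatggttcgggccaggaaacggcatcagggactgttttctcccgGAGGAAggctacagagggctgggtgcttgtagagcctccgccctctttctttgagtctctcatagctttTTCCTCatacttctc
The core begins 30 bases before the start of C1qb, 193 before that of C1qc, and 84 and 15 before that of Itgam. It was not found in the same window of C3 or C3ar1. Of all 32851 promoters, 23.3% hold at least 1 match and 3.54% at least 2 in this window, so a single match is common.

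C1q was measured almost wholly in microglia and macrophages. In microglia the level of C1qa was 64.3 in BCD/Sal mouse 9901 and 92.6 and 89.8 in BCD/Ket mice 9949 and 9986, while CORT/Sal mouse 9969 had 114 and CORT/Ket mice 9968 and 9971 had 111 and 83.2. For C1qb the same mice, in the same order, had 46.0 (BCD/Sal), 80.2 and 66.4 (BCD/Ket), 94.3 (CORT/Sal) and 92.7 and 63.8 (CORT/Ket). For C1qc they had 43.8 (BCD/Sal), 64.7 and 51.8 (BCD/Ket), 69.2 (CORT/Sal) and 68.3 and 50.4 (CORT/Ket). The BCD/Sal mouse was lowest and the CORT/Sal mouse highest for each of the 3 genes. Over the 6 mice the levels were 92.5 ± 18.4, 73.9 ± 18.7 and 58.0 ± 10.7 for C1qa, C1qb and C1qc (mean ± SD). A UMI of C1qa was found in 861 of 863 microglia (99.8%), all 3 genes together in 850, and none of the 3 in 1. In the median microglia C1q made up 2.17% of all UMIs, with 1.68% and 2.73% at the lower and upper quartile.

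The share of cells with C1qa elsewhere was 0.696% in astrocytes, 0.914% in endothelial cells and 4.09% in mural cells, against 1.08% in excitatory neurons and 0.529% in oligodendrocytes, classes that should lack C1q, at median depths of 1619, 1369, 1628, 1618 and 1998 UMIs. With every cell thinned to 500 UMIs (1, 5, 79, 8, 10 and 10 shallower cells left out in microglia, astrocytes, endothelial cells, mural cells, excitatory neurons and oligodendrocytes) the shares were 97.1% in microglia, 0.233% in astrocytes, 0.394% in endothelial cells, 2.68% in mural cells, 0.396% in excitatory neurons and 0.272% in oligodendrocytes. The shares of astrocytes were below those of the neurons for all 3 C1q genes and are read as background. In endothelial cells the share with C1qa was also below that of the neurons, but that with C1qb was 1.83% against 0.686% (0.985% against 0.297% after thinning). Endothelial cells of BCD/Sal mouse 9947, BCD/Ket mouse 9946, CORT/Sal mouse 9970 and CORT/Ket mouse 9967 had 0 C1q UMIs. These were 46, 144, 11 and 30 cells, in which 3 UMIs would be 0.889, 0.284, 8.8 and 1.65 per 10000. Their libraries held 0 to 3 microglia. All 126 endothelial C1q UMIs came from the other mice, with 118 to 169 microglia each, and their source was not tested. In the order of classes, the level of C1qa over all mice fell from 95.5 in microglia and 57.2 in macrophages to 1.25 in mural cells, 0.422 in oligodendrocyte precursor cells (OPC), 0.206 in endothelial cells, 0.0638 in excitatory neurons, 0.0543 in astrocytes and 0.0197 in oligodendrocytes. The interval of endothelial cells (0.153 to 0.273) lay above that of excitatory neurons, and the intervals of the last 3 overlap (0.0378 to 0.101, 0.0297 to 0.0911 and 0.00238 to 0.0710). These intervals cover counting error only, and 97 of 126 endothelial C1q UMIs lay in 5 of 1094 cells. By mouse, C1qa was at 0.15 ± 0.21 in endothelial cells (SD, n = 10) and 0.11 ± 0.24 in excitatory neurons (n = 9). The mice do not separate these classes.

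**Figure D1:**
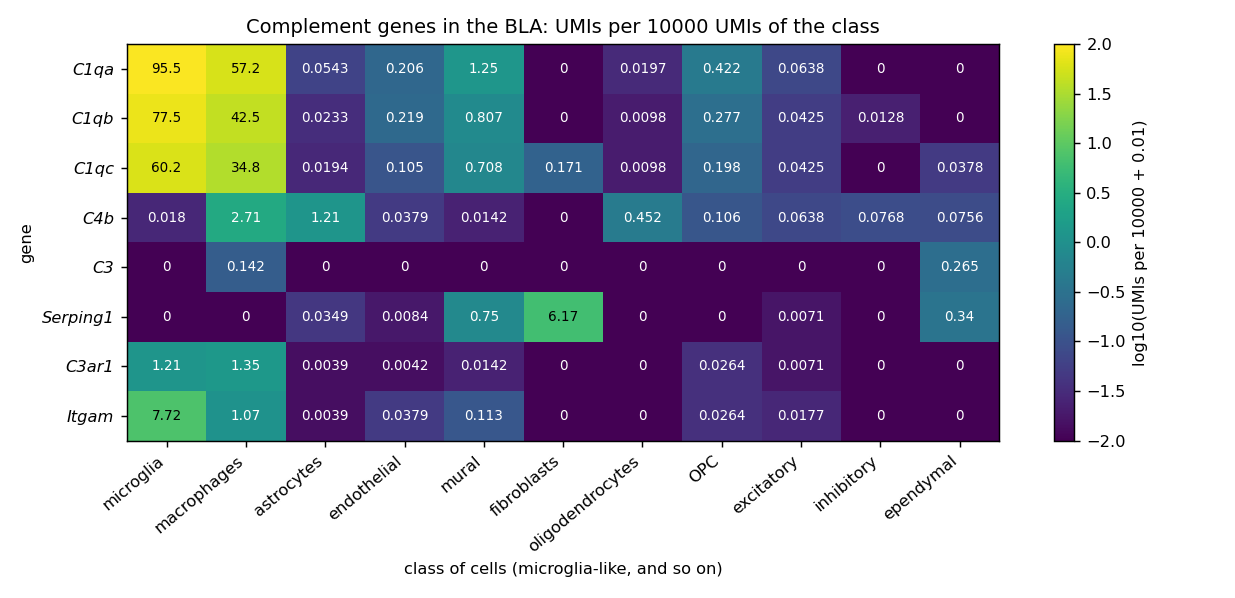
Levels of the 8 genes in 11 classes of cells, as UMIs per 10000 UMIs of the class over all mice (numbers), coloured on a log10 scale after adding 0.01. The C1q genes stand at 34.8 to 95.5 in microglia and macrophages and at 1.25 or less elsewhere, C4b at 2.71 in macrophages and 1.21 in astrocytes, and Serping1 at 6.17 in fibroblasts.

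Microglia were compared with macrophages within the 4 mice that had at least 10 cells of both (edgeR's quasi-likelihood test on summed counts, mouse as a block, Benjamini-Hochberg adjustment over all genes tested). In macrophages C1qa was at 58.3 in BCD/Ket mouse 9986 and at 80.3 in CORT/Sal mouse 9969, while CORT/Ket mice 9968 and 9971 had 60.6 and 51.0, below the microglia of the same mouse in 4 of 4. The log2 fold change of microglia over macrophages was 0.69 ± 0.14 for C1qa (SE, 1.62-fold, adjusted p = 8.22e-06), 0.81 ± 0.14 for C1qb (adjusted p = 3.51e-07) and 0.65 ± 0.15 for C1qc (adjusted p = 0.000112). The median over all genes tested was 0.20, and all 3 genes lay above it. Without mouse as a block, C1qb and 2 other members passed, but C1qa and C1qc did not (log2 0.57 and 0.54). Over the members 5 of 6 tested passed, against 27.2% of all genes tested in this comparison. Among all other classes the contrast was far larger: against astrocytes 6 of 6 members tested passed (67.8% of all genes did), and C1qa, C1qb and C1qc differed by 10.75 ± 0.27, 11.55 ± 0.29 and 11.40 ± 0.29 (log2, SE, 6 mice), from 15937, 12922 and 10043 UMIs in microglia and 14, 6 and 5 UMIs in astrocytes.

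The macrophage cluster was not uniform. Of its 52 cells, 34 had UMIs of 3 or more of the 14 markers of border-associated macrophages and 18 had fewer, a split made after seeing the data. The 34 cells held 793 of 804 C1qa UMIs, 579 of 597 of C1qb, 481 of 489 of C1qc, all 38 UMIs of C4b and all 19 of C3ar1. A C1qa UMI was present in 34 of 34 and in 3 of 18 cells, and C4b in 15 of 34 and 0 of 18, which allows a share of up to 16.7%. The other 18 cells, at a median of 2088 against 2662 UMIs, had UMIs of Selplg (from the microglial markers) in 10, Clec12a (from the macrophage markers) in 7, Plac8 and Ccr2 (from those of other myeloid cells) in 6 and 5, and Cd3e (from those of lymphocytes) in 4 cells. In the 34 cells the level of C1qa was 83.8 over all mice, against 95.5 in microglia. With these cells alone (at least 5 per mouse, 4 mice, an alternative added after seeing the data), C1qa was still higher in microglia by 0.40 ± 0.14 (log2, adjusted p = 0.0225) and C1qb by 0.54 ± 0.15 (adjusted p = 0.00185), while C1qc did not pass (0.35 ± 0.15, adjusted p = 0.0661).

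The 3 C1q genes kept a near constant proportion. Of all C1q UMIs of a mouse's microglia, 39.0% to 43.2% came from C1qa, 29.9% to 34.1% from C1qb and 24.9% to 28.4% from C1qc over the 6 mice. Macrophages had 42.5%, 31.6% and 25.9% over all mice, with C1qa at most 44.4% in a mouse, and the widest departure in CORT/Ket mouse 9971 (225 C1q UMIs), where C1qb gave 23.1% and C1qc 32.4%. In mural cells the proportions were 45.1%, 29.2% and 25.6% of 195 UMIs. The shares describe counts of captured transcripts without correction for length, and they are compared between classes rather than between genes.

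**Figure D2:**
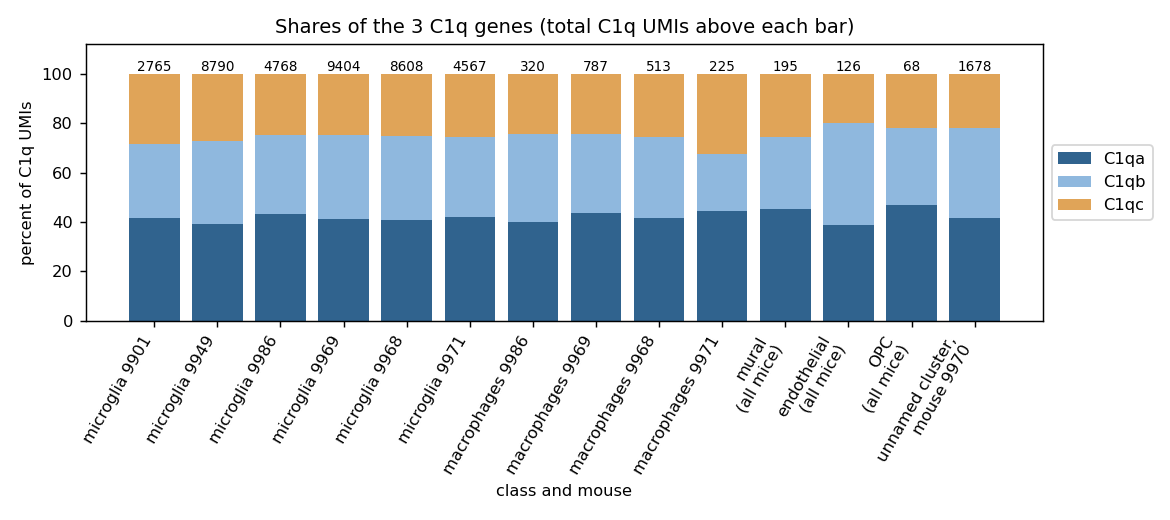
Percent of the C1q UMIs that came from C1qa, C1qb and C1qc in each mouse's microglia and macrophages, in mural, endothelial and OPC classes over all mice, and in the unnamed cluster of mouse 9970, with the number of C1q UMIs above each bar. C1qa takes 38.9% to 47.1% of every bar.

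C1q in mural cells came from a handful of cells. Mural cells held 195 C1q UMIs, and 188 of them (96.4%) were in 7 of 269 cells with 5 or more, with up to 53 UMIs in 1 cell. UMIs of microglial markers were present in all 7. Of the 13 mural cells with any C1q UMI, 84.6% had a UMI of a microglial marker, against 15.2% of the others. In the class 12 of 12 microglial markers were detected, as in endothelial cells, OPC and excitatory neurons. Marker shares were also higher with C1q in endothelial cells (53.85% against 7.30%) and excitatory neurons (57.9% against 3.90%). In inhibitory and ependymal cells, with 1 such cell each, they were not. Of the 7 mural cells, 0 were among the highest Scrublet doublet scores, which an alternative removed. Only 1 of all 269 mural cells was, so the 0 says little about these cells. Endothelial cells had 97 of 126 C1q UMIs (77.0%) in 5 of 1094 cells, all 5 with microglial markers and 1 among the highest doublet scores. OPC had 57 of 68 in 2 of 406 cells, both among the highest doublet scores. In the test within 7 mice, C1qa, C1qb, C1qc and Serping1 were all higher in mural than in endothelial cells (4 of 4 members tested, 33.4% of all genes tested), by 2.61 ± 0.28 on the log2 scale for C1qa from 88 and 49 UMIs, and these C1q calls rest on the few cells just described. The part of microglial transcripts in these cells was not tested.

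The unnamed cluster of CORT/Sal mouse 9970 showed the opposite spread. This library held 0 microglia, yet its cluster of 2344 barcodes had 1678 C1q UMIs (4.58 per 10000), with at least 1 in 49.6% of barcodes and never more than 5. Barcodes with 5 or more held 1.19% of these UMIs. C1qa gave 41.5% of them, within the range of microglia by mouse (39.0% to 43.2%). C1qb, at 36.5%, was above that range (29.9% to 34.1%), and C1qc, at 22.0%, was below it (24.9% to 28.4%). Microglial markers summed to 4.24 per 10000, with 12 of 12 detected, as in some other classes. In contrast with the mural cells, barcodes with and without C1q had a microglial marker at similar shares (50.3% and 44.0%).

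**Figure D3:**
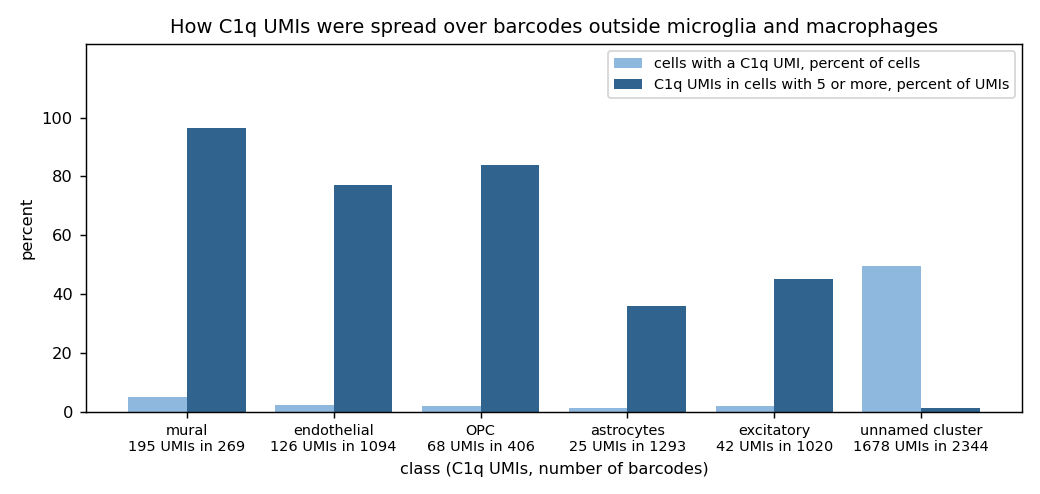
Outside microglia and macrophages, the percent of barcodes with at least 1 C1q UMI (light) and the percent of C1q UMIs that lie in barcodes with 5 or more (dark), for 5 classes and the unnamed cluster of mouse 9970. In mural cells 4.83% of cells carry C1q and 96.4% of UMIs lie in cells with 5 or more, and in the unnamed cluster the same values are 49.6% and 1.19%.

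C4b, the classical component that C1 cleaves, had another distribution. It was at 0.949 in the astrocytes of BCD/Sal mouse 9901, 0.929 and 1.54 in BCD/Ket mice 9949 and 9986, while CORT/Sal mouse 9969 had 1.47 and CORT/Ket mice 9968 and 9971 had 1.17 and 1.23. These 310 UMIs gave 1.21 ± 0.25 over 6 mice (SD). The BCD/Ket mice spanned the values of all other groups. The CORT/Sal mouse was above both CORT/Ket mice, and the BCD/Sal mouse was below all CORT mice. In macrophages it was at 4.10 in BCD/Ket mouse 9986 and 3.74 in CORT/Sal mouse 9969, while CORT/Ket mice 9968 and 9971 had 1.13 and 4.59, from 38 UMIs in all. Microglia had 3 UMIs in 2 cells, all in CORT/Ket mouse 9968.

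Within the 6 mice C4b was 67.1-fold higher in astrocytes than in microglia (interval of the ratio 22.7 to 327, from 310 and 3 UMIs) and passed the test (adjusted p = 8.67e-53, edgeR). Over microglia it was 118-fold higher in macrophages (37.5 to 598, 38 and 3 UMIs, 4 mice). With 1 mouse left out the fitted log2 value of microglia over astrocytes ranged from -8.39 to -5.44 and that over macrophages from -8.87 to -5.90, the lower end in each without mouse 9968, when microglia had 0 UMIs of C4b and the fitted value is no bound. It was also higher in astrocytes than in endothelial cells (log2 5.57 ± 0.33, higher in 6 of 6 mice, 310 and 5 UMIs), where 2 of 2 members tested passed and 71.6% of all genes tested did. The other call there, C1qa higher in endothelial cells (log2 astrocytes over endothelial cells -1.98 ± 0.83, adjusted p = 0.0498), is of 14 and 49 UMIs, and it did not pass without mouse 9969, 9971 or 9986 and could not be tested without mouse 9901 or 9968 (range with 1 mouse left out, log2 -3.64 to -1.78). Oligodendrocytes, which wrap axons in myelin, had 0.452 per 10000 (46 UMIs, 7.67% of cells), and astrocytes were 2.88-fold above them (2.04 to 4.17, 310 and 37 UMIs in 6 mice).

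A C4b UMI was found in 234 of 1293 astrocytes (18.1%, 7.14% after thinning), mostly a single one (184 cells, at most 6), against 1.57% of excitatory neurons (0.495% after thinning). Astrocytes with C4b had a median of 1866 UMIs and those without 1577. Gfap, the filament protein of reactive and fibrous astrocytes, was at 3.86 per 10000 in astrocytes with C4b and 1.72 in those without, higher in 6 of 6 mice. Apoe, the main lipid carrier made by astrocytes, was at 253 and 224 (6 of 6 mice). General astrocyte markers were also higher in cells with C4b, with Slc1a2 at 99.4 and 92.9 (6 of 6 mice) and Aqp4 at 11.2 and 10.7 (5 of 6). Clu was at 60.5 and 52.3 (5 of 6), Vim at 0.633 and 0.372 (5 of 6) and H2-K1 at 1.34 and 1.11 (4 of 6). Serpina3n, another gene of reactive astrocytes, was at 0.0767 and 0.0636 (2 of 6 mice), and H2-D1 at 0.0959 and 0.157 (2 of 6 mice). Since cells with C4b were deeper and were chosen by a detected transcript, these are descriptions.

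C3 had 11 UMIs in 8305 barcodes. Of these 7 were in ependymal cells (0.265 per 10000, in 6 of 67 cells), 2 in macrophages and 2 in unnamed clusters. In microglia, astrocytes, endothelial cells and mural cells there was 0, which allows a share of cells with a UMI of up to 0.348%, 0.232%, 0.274% and 1.12%. Both C3 UMIs of the macrophage cluster were in the 18 cells with fewer than 3 macrophage markers. C3 was therefore not detectable at this depth in the cells that hold C1q or C4b, and no test of it was possible.

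Serping1 was highest in fibroblasts and mural cells. Fibroblasts held 36 of its 122 UMIs in 27 cells (6.17 per 10000, 4.32 to 8.54, 66.7% of cells), although no mouse had 10 of them. Mural cells held 53 UMIs in 38 cells (14.1%, 3.83% after thinning). By mouse they were at 0.791 in BCD/Sal mouse 9901, 0, 0.408 and 1.00 in BCD/Ket mice 9946, 9949 and 9986, while CORT/Sal mouse 9969 had 1.33 and CORT/Ket mice 9968 and 9971 had 0.384 and 1.12. The lowest, mouse 9946, had only 11 mural cells and 7685 UMIs, in which 3 UMIs would be 3.90 per 10000. Endothelial cells had 1 UMI in the same 7 mice, a ratio of 176 between mural and endothelial cells with an interval of 30.2 to 7082 (adjusted p = 1.13e-20, edgeR). Microglia and macrophages had 0 UMIs (up to 0.348% and 5.77% of cells), and excitatory neurons 0.196% of cells.

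**Figure D4:**
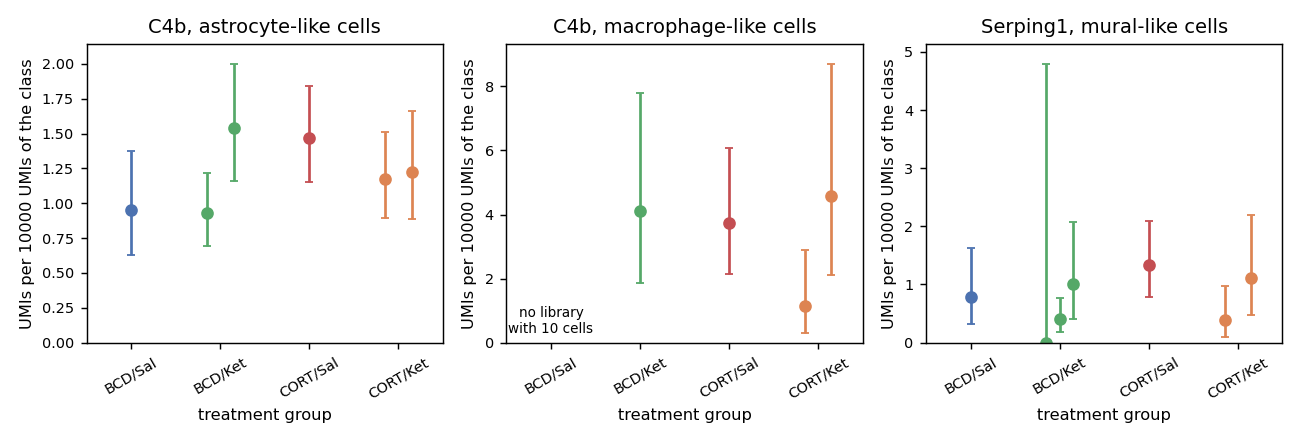
Levels of C4b in astrocytes and macrophages and of Serping1 in mural cells, 1 point per mouse with exact Poisson 95% intervals, by treatment group. Astrocyte values lie between 0.929 and 1.54 with overlapping intervals, and no BCD/Sal mouse had 10 macrophages.

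The receptors divided microglia from macrophages differently. In microglia Itgam was at 7.69 in BCD/Sal mouse 9901, 8.43 and 8.07 in BCD/Ket mice 9949 and 9986, while CORT/Sal mouse 9969 had 6.82 and CORT/Ket mice 9968 and 9971 had 7.04 and 8.61 (7.78 ± 0.73, SD, n = 6). It was detected in 69.8% of microglia (31.4% after thinning) and 0.294% of excitatory neurons. In macrophages it was at 0.467 to 2.04 over 4 mice, from 14 UMIs, and the log2 fold change of microglia over macrophages was 2.65 ± 0.34 (adjusted p = 1.27e-13, higher in 4 of 4 mice). With the cells that had 3 or more macrophage markers the difference was 2.57 ± 0.36. Itgb2, the beta chain that pairs with Itgam in CR3, was at 2.45 in microglia and 2.07 in macrophages and did not pass (log2 0.35 ± 0.34, adjusted p = 0.491). Its UMIs were uneven over the macrophage cluster. The 37 cells with a C1qa UMI had Itgb2 at 1.03 per 10000 (in 7 cells), and the 15 without had 4.40 (in 6 cells). The near equal levels of Itgb2 thus describe the whole cluster and not its marked macrophages.

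For C3ar1 in microglia the same mice had 1.17 (BCD/Sal), 1.03 and 1.18 (BCD/Ket), 1.33 (CORT/Sal) and 1.14 and 1.51 (CORT/Ket), 202 UMIs over all microglia and 0.196% of excitatory neurons with a UMI. Macrophages were at 0.850 to 3.19 over 4 mice from 19 UMIs. The microglia were higher in 2 of 4 mice, the log2 fold change was -0.33 ± 0.41 (95% interval -1.13 to 0.47, adjusted p = 0.599), an interval that holds differences of either sign. C3ar1 had 1 UMI each in astrocytes, endothelial cells and mural cells. C5ar1, the receptor of the C5 fragment, was higher in macrophages than in microglia (log2 microglia over macrophages -1.30 ± 0.39, adjusted p = 0.00474).

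Between treatments, microglia could be tested in 3 contrasts, since BCD/Sal and CORT/Sal had 1 library each with microglia. The lone library of a group is assumed in the fit to vary like the others, and nothing in the labels says that a difference between mice is free of litter or preparation effects. Of the 5 members tested (C1qa, C1qb, C1qc, C3ar1 and Itgam), 0 passed for ketamine after CORT (CORT/Ket against CORT/Sal), ketamine after BCD (BCD/Ket against BCD/Sal) or CORT under ketamine (CORT/Ket against BCD/Ket), with 0 at an unadjusted p under 0.05 and 0 by DESeq2. Among all genes, 0%, 0.016% and 0% passed in these contrasts. In BCD/Ket against BCD/Sal both ketamine mice were above the saline mouse for each C1q gene, with log2 fold changes of 0.65 ± 0.49 for C1qa, 0.82 ± 0.49 for C1qb and 0.56 ± 0.48 for C1qc (SE, adjusted p = 0.850, 0.848 and 0.873, edgeR). In CORT/Ket against CORT/Sal both ketamine mice were below the saline mouse, with -0.28 ± 0.47, -0.32 ± 0.47 and -0.27 ± 0.46 (adjusted p = 1 for each, rounded). For C1qa the 95% interval was -0.31 to 1.61 after BCD and -1.21 to 0.64 after CORT. CORT/Ket against BCD/Ket gave 0.06 ± 0.39, 0.06 ± 0.39 and -0.01 ± 0.38 (adjusted p = 1 for each).

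Depth moved with the C1q levels. Microglia of mice 9949, 9969 and 9968 had 2892, 2586 and 2684 UMIs per cell, and those of 9901, 9986 and 9971 had 1094, 1529 and 1368. The 3 deeper libraries held the 3 highest levels of each C1q gene, with C1qa at 92.6 to 114 against 64.3 to 89.8, without overlap, while Itgam (6.82 to 8.43 against 7.69 to 8.61) and C3ar1 (1.03 to 1.33 against 1.17 to 1.51) overlapped. Genes of activated microglia such as Apoe, Trem2 and Tyrobp (Clec7a was not analysed here) summed to 155 to 171 per 10000 in the deeper and 114 to 137 in the shallower libraries. The median mitochondrial share of the microglia split the same way, at 5.07% to 5.44% in the deeper and 3.77% to 4.58% in the shallower libraries, and its part was not tested. Among the shallower libraries C1qa was at 64.3 in BCD/Sal, 89.8 in BCD/Ket and 83.2 in CORT/Ket. Among the deeper ones CORT/Ket had 111, CORT/Sal 114 and BCD/Ket 92.6, 1 mouse each and so with no test. Saline with BCD was found in a shallow library alone and saline with CORT in a deep one alone, so this comparison and depth cannot be told apart.

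**Figure D5:**
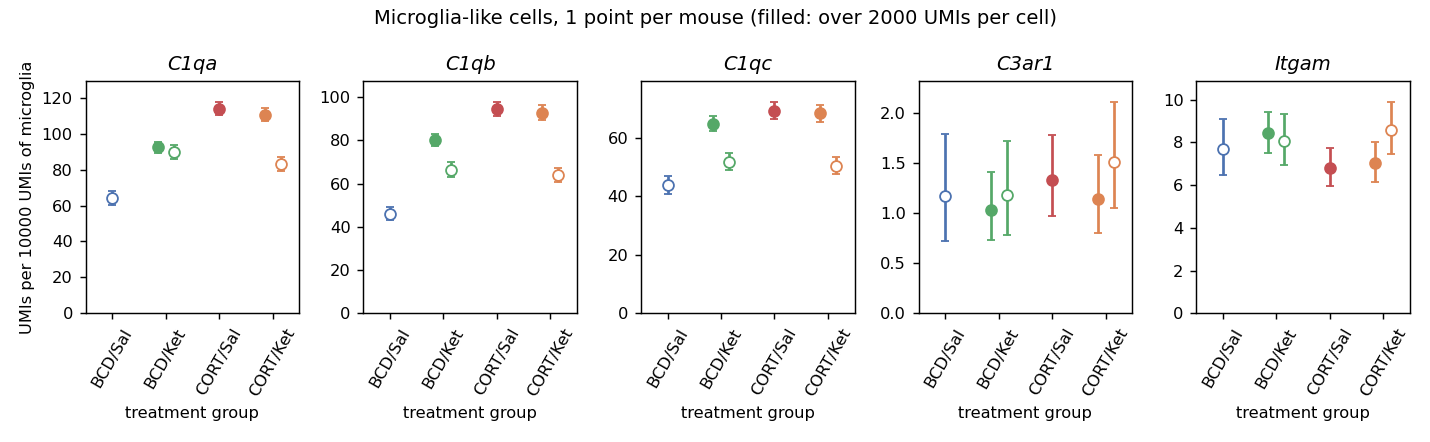
Levels of C1qa, C1qb, C1qc, C3ar1 and Itgam in microglia, 1 point per mouse with exact Poisson 95% intervals, by treatment group. Filled points are libraries with over 2000 UMIs per microglia, and for the C1q genes they are the 3 highest.

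For the other microglial members, Itgam changed by 0.25 ± 0.45 in BCD/Ket against BCD/Sal, 0.13 ± 0.44 in CORT/Ket against CORT/Sal and -0.12 ± 0.36 in CORT/Ket against BCD/Ket, and C3ar1 by 0.05 ± 0.49, -0.08 ± 0.43 and 0.22 ± 0.37 (log2, SE). These 6 values were smaller than their errors. In macrophages 0 of 4 members tested (C1qa, C1qb, C1qc and C4b) passed in CORT/Ket against CORT/Sal or against BCD/Ket (0 at an unadjusted p under 0.05, 0 by DESeq2), where 0% and 0.849% of all genes passed. The C1q genes gave -0.47 ± 0.51, -0.58 ± 0.53 and -0.24 ± 0.55 in the first contrast, and -0.04 ± 0.53, -0.44 ± 0.54 and 0.07 ± 0.57 in the second, from 10 to 12 cells per mouse.

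In astrocytes C4b was the only member with enough counts to test. It changed by 0.35 ± 0.40 in BCD/Ket against BCD/Sal (log2, 95% interval -0.44 to 1.14, adjusted p = 0.902), by -0.31 ± 0.35 in CORT/Ket against CORT/Sal (-0.99 to 0.37, adjusted p = 0.999) and by -0.04 ± 0.30 in CORT/Ket against BCD/Ket (-0.62 to 0.55, adjusted p = 1, edgeR). It passed in 0 contrasts, with an unadjusted p under 0.05 in 0 and 0 calls by DESeq2, and 0.024%, 0% and 0% of all genes passed. Endothelial cells, with 10 libraries, were the largest set, but none of the 8 members had enough counts for the filter.

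In mural cells 0 of 4 members tested (C1qa, C1qb, C1qc and Serping1) passed in the fit of all groups, and 0 by DESeq2, where 0%, 0.0243% and 0% of all genes passed for ketamine after CORT, ketamine after BCD and CORT under ketamine. At an unadjusted p under 0.05 there were 3, 0 and 2 members. Serping1 changed by -0.93 ± 0.74, -0.48 ± 0.85 and 0.30 ± 0.71 (log2, SE). The 3 C1q genes had 0 UMIs in the mural cells of CORT/Sal mouse 9969 (40 cells, 135663 UMIs, where 3 UMIs would be 0.221 per 10000), against C1qa at 2.30 and 2.09 in CORT/Ket mice 9968 and 9971. They passed under some alternatives, some of which leave out libraries, listed at the end. In those 2 CORT/Ket mice 53 C1q UMIs lay in 1 cell and 49 in 2 cells. C1qa was at 2.15 in BCD/Sal mouse 9901 and at 0, 0.454 and 2.87 in BCD/Ket mice 9946, 9949 and 9986. Microglial markers in mural cells moved with C1q, at 0.811 per 10000 in CORT/Sal mouse 9969, 6.72 and 17.4 in the CORT/Ket mice, 9.15 in BCD/Sal mouse 9901 and 0, 1.04 and 9.04 in the BCD/Ket mice, and their part in the difference was not tested. In the other contrasts C1qa gave -0.82 ± 0.75 (BCD/Ket against BCD/Sal) and 0.85 ± 0.62 (CORT/Ket against BCD/Ket), C1qb -1.39 ± 0.86 and 1.62 ± 0.70, and C1qc -0.76 ± 0.93 and 2.25 ± 0.65. These values moved widely with 1 mouse left out, from -3.40 to -0.23 and from 0.43 to 3.61 for C1qb (the ends without mice 9986 and 9949), and from 1.41 to 3.09 for C1qc in CORT/Ket against BCD/Ket.

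Of 52 other complement genes listed, 51 were counted (C4a was not analysed here), 18 reached 1 UMI per 10000 in a class and 10 had no UMI. Starters of the pathways were low, with Fcna, a ficolin that starts the lectin pathway, at 1.42 in macrophages, and Colec12, a scavenger collectin, at 6.86 in fibroblasts and 2.24 in mural cells. Regulators were abundant. Clu (clusterin), which holds back the membrane attack complex, was at 53.2 ± 4.0 in astrocytes (SD, n = 6, 95.7% of cells). Vtn (vitronectin), with a like role, was at 76.3 ± 16.8 in mural cells (SD, n = 7). Cd59a, which blocks the last step of pore formation, was at 2.33 in endothelial cells and 1.43 in oligodendrocytes. Endothelial cells had Cd93 at 5.79 ± 0.91 (SD, n = 10), a surface protein once described as a C1q receptor.

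Between classes, 5 of 11 of these genes tested passed for microglia against macrophages (2 higher in microglia and 3 lower), 12 of 13 for microglia against astrocytes (8 and 4), 11 of 12 for astrocytes against endothelial cells (6 and 5) and 7 of 10 for endothelial against mural cells (4 and 3). Of all genes tested 27.2%, 67.8%, 71.6% and 33.4% passed in these comparisons, and nothing particular to complement genes is read from the counts. Fcna was higher in macrophages than in microglia (adjusted p = 1.53e-10, edgeR). Between treatments 0 passed, of 10 tested in microglia, 2 in macrophages, 11 in astrocytes, 8 in endothelial cells and 9 in mural cells, with at most 1 at an unadjusted p under 0.05 in each contrast and 0 by DESeq2, where at most 0.849% of all genes passed in a contrast of the first 3 classes or of mural cells. In endothelial cells 0.0943% of all genes passed in CORT/Sal against BCD/Sal and 0.0786% in CORT/Ket against BCD/Ket. In CORT/Ket against CORT/Sal and in BCD/Ket against BCD/Sal 0% did.

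Over 68 sums of a class and mouse, the genes most like C1qa among 10633 genes were C1qb, C1qc, Trem2, Fcrls and Csf1r (Pearson r of log2(CPM + 10) from 0.988 to 0.978). Sums of a mouse share its library and depth, so these are descriptions. For Serping1 they were S1pr3, Art3, Acta2, Tagln and Zic1 (r 0.850 for S1pr3, from 122 UMIs). Those of C4b had lower values, Apoe, Selenbp1, H2-Aa, Sdc4 and AI413582 (r 0.646 to 0.572). C3, with 11 UMIs, was most like Ccdc153, Tmem212, Dcxr, Epb41l4aos and H2-Eb1 (r 0.537 to 0.519), a weak likeness in sparse counts.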

How the data were processed

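BLA libraries of 10 mice were analysed, grouped by the labels. The authors used 10x Chromium and Cell Ranger (its version in the file headers is 3.0.2), naming mm9 as the genome. What they deposited are unnormalized UMI counts. Which annotation was counted could not be settled, so NCBIM37 coordinates were looked up by Ensembl identifier.

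Members and gene lists were chosen with earlier results of these data known. Barcodes with 200 genes or more and a mitochondrial fraction up to 0.125 entered, and no doublets were removed. Clustering used 2000 variable genes without complement genes, 30 components, 20 neighbours and Leiden resolution 0.8 (seed 1; scanpy 1.11.5, leidenalg 0.10.2, Python 3.11.15). A cluster was named by at least 3 markers of 1 class among its 50 leading genes (detected in at least 10% of cells, clusters with over 90% of barcodes from 1 library left out of the reference). Counts were summed per class and mouse (at least 10 cells) and tested with edgeR 4.0.16 (TMM, filterByExpr, robust quasi-likelihood, R 4.3.3), in 1 fit of all groups for treatments where a contrast had at least 3 libraries, and with mouse as a block for classes. A gene passed at an adjusted p under 0.05. DESeq2 1.42.0 was an alternative. SEs were derived from the F statistic, and intervals are 1.96 SE wide on each side. The fits were tested on simulated counts. Log2 fold changes between treatments are given for members with at least 50 UMIs in a class that passed filterByExpr. Other complement genes were named if past the threshold or at 1 UMI per 10000 or more in a class, and the 5 most alike genes were taken among those with at least 200 UMIs. Genes compared between astrocytes with and without C4b, and marker genes of the macrophage cluster, were named after their values were seen. Where a count is 0, the limit given is that of 3 counts. The labels name no batch. Alternatives without the block, without 4 libraries and with marked macrophages were added after seeing the data.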

Additional observations from a re-analysis of the deposited data

Results flagged for a closer look

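In microglia every BCD/Ket mouse was above the BCD/Sal mouse and every CORT/Ket mouse below the CORT/Sal mouse for C1qa, C1qb and C1qc, so the differences from the lone saline mouse had opposite signs after BCD and after CORT. CORT/Ket mouse 9968 was below CORT/Sal mouse 9969 only within counting error (C1qa 111, 107 to 114, against 114, 110 to 118). The additive fit estimates a single ketamine effect for BCD and CORT mice together. Its positive values therefore say nothing about the sign after CORT alone. The difference itself did not pass the test for C1qa (log2 -0.93 ± 0.68, SE, adjusted p = 0.852, edgeR), C1qb (-1.14 ± 0.67, adjusted p = 0.814) or C1qc (-0.83 ± 0.67, adjusted p = 0.878), with 1 saline mouse on each side and depth that moved with the levels.

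Outside the compared classes, the unnamed cluster of CORT/Sal mouse 9970 held 4.58 C1q UMIs per 10000, against 0.149 in excitatory neurons over all mice. Serping1 was at 6.17 UMIs per 10000 in fibroblasts, which no mouse had in numbers that allow a test. C3 had 7 of its 11 UMIs in ependymal cells.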

How the results depend on the processing

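Calls between treatments kept their count of 0 in microglia, macrophages and astrocytes under every alternative run, and 170 of 180 alternative counts over all classes were as reported. In mural cells, CORT/Ket against CORT/Sal gave 3 calls (C1qa, C1qb and C1qc) with at least 30 cells, with only the groups of the contrast, with at least 500 genes, at Leiden resolution 0.4, with complement genes in the clustering, and without the 4 libraries with few microglia (added after seeing the data), 1 call at most 25% mitochondrial UMIs, and 0 to 3 with 1 mouse left out (3 without mouse 9946 or 9986). For mural cells, the settings of at least 30 cells, without the 4 libraries and without mouse 9946 all leave out mouse 9946 alone. These settings are the same mural fit and not separate support. CORT/Ket against BCD/Ket gave 0 to 1 (C1qb, without mouse 9986). Mural C1q lay in few cells, and mouse 9969 had none. For the alternatives in this section, the share of all genes called is not given. Nothing particular to the members is therefore read from their counts.

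Mouse was a block in the class comparisons, since both classes of a pair come from the same animal. Without this replicate block (added after seeing the data), 3 members passed for microglia against macrophages, 6 against astrocytes, 1 for astrocytes against endothelial cells, and 0 for endothelial against mural cells, where none passed the filter. No paired analysis was possible between treatments because each mouse received 1 treatment. For astrocytes against endothelial cells the count was 4 with no filter on low counts, 0 at most 5% mitochondrial UMIs, 1 with at least 500 genes, without the highest Scrublet scores, at Leiden resolution 0.4 and with complement genes in the clustering, and 1 to 2 with 1 mouse left out. C4b passed in all of these but the 5% setting.

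Directions turned for values that did not pass, and for C1qa in astrocytes against endothelial cells, which rests on 14 and 49 UMIs. The additive fit has a single ketamine effect and a single CORT effect. Its values are thus pooled over all groups and are set beside each contrast of that treatment. With the additive fit, C1qa, C1qb and C1qc in microglia gave 0.15, 0.21 and 0.12 in CORT/Ket against CORT/Sal, C1qc 0.25 in CORT/Ket against BCD/Ket, and C3ar1 -0.025 in BCD/Ket against BCD/Sal. In mural cells it gave 0.88, 0.73 and 1.75 in BCD/Ket against BCD/Sal and -0.32 for C1qa in CORT/Ket against BCD/Ket, and for C4b in astrocytes -0.041 and 0.165 in BCD/Ket against BCD/Sal and CORT/Ket against BCD/Ket. At most 5% mitochondrial UMIs, C3ar1 was at 0.37 and -0.29 in CORT/Ket against CORT/Sal and BCD/Ket against BCD/Sal, Itgam at -0.064 and 0.04 in BCD/Ket against BCD/Sal and CORT/Ket against BCD/Ket, C1qc at 0.009 in the latter, and C4b at 0.90, -0.10 and 1.29. C1qc in microglia (CORT/Ket against BCD/Ket) was at 0.012 at most 25% mitochondrial UMIs and 0.011 without the highest Scrublet scores. C4b in that contrast was at 0.05 at Leiden resolution 0.4 and 0.059 with complement genes in the clustering. In macrophages against BCD/Ket, C1qc was at -0.033 with only the groups of the contrast, and C1qa at 0.25 with no filter, 0.067 with DESeq2 and 0.18 at most 25% mitochondrial UMIs. Between classes, C3ar1 was at 0.057 with no filter (microglia against macrophages), and C1qa at 0.41 with at least 500 genes (astrocytes against endothelial cells). The cause was not tested.

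With 1 mouse left out, the log2 fold changes of CORT/Ket against BCD/Ket ranged from -0.23 to 0.30 (C1qa), -0.30 to 0.35 (C1qb), -0.31 to 0.27 (C1qc) and -0.23 to 0.006 (Itgam) in microglia, from -0.36 to 0.32 for C4b in astrocytes, from -0.03 to 2.35 (C1qa) and -0.57 to 0.95 (Serping1) in mural cells, and was -0.033 without mouse 9969 for C1qc in macrophages. In mural cells BCD/Ket against BCD/Sal ranged from -2.33 to 0.038 (C1qa), -1.61 to 0.044 (C1qc) and -1.03 to 0.035 (Serping1). C3ar1 in microglia against macrophages ranged from -0.61 to 0.012.

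Depth limits the shares: thinning to 500 UMIs lowered Itgam in microglia to 31.4% and C4b in astrocytes to 7.14% of cells. Of 56 alternative levels 51 moved by less than the SD between mice, and all 5 that moved more came at most 5% mitochondrial UMIs. Treatment contrasts rest on 1 or 2 libraries a group in microglia and astrocytes.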
